A study of Mus musculus with 6 samples.

Results

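The genes described here encode MAP kinase phosphatases of the dual-specificity phosphatase (DUSP) family. They are Dusp1, Dusp2, Dusp4, Dusp6, Dusp7, Dusp8, Dusp9, Dusp10, Dusp14 and Dusp16, which were chosen by name. All 10 had a row of their own on the array, among 14860 genes tested, and none had a second row. RNA was measured on 6 Affymetrix expression arrays of cultured mouse aortic endothelial cells, 3 labelled ERK1/2 null and 3 labelled ERK1/2 wild type. The mice were of strain C57/BL6 (5 generations) and 4 weeks old. The genotype label of all 6 arrays gives Erk1-/- with floxed Erk2 (Erk2fl/fl), so the group titled wild type also carried the Erk1 deletion. The null cultures had been infected with a lentivirus encoding Cre recombinase, which removes the floxed Erk2 segment (egfp-Cre by the source label of all 3, and plain Cre by the genotype label of replicates 2 and 3). The wild type cultures had received a lentivirus encoding green fluorescent protein without Cre. Cre, the virus construct and the loss of Erk2 therefore cannot be told apart. The group names of the titles are kept here, and the rows of the targeted kinases were not analysed here.

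ERK1, ERK2, JNK and p38 are MAP kinases, which become active when a kinase phosphorylates a threonine and a tyrosine in their activation loop. MAP kinase phosphatases remove both phosphates. Several of their genes are themselves transcribed in response to MAP kinase activity and so form negative feedback. Dusp1, Dusp2 and Dusp4 encode inducible nuclear enzymes, Dusp6, Dusp7 and Dusp9 cytoplasmic enzymes that prefer ERK, and Dusp8, Dusp10 and Dusp16 enzymes that prefer JNK and p38. Dusp14 encodes a small atypical member without the kinase-binding domain of the others.

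Members of this family moved in opposite directions in ERK1/2 null cultures. Dusp1, Dusp8 and Dusp16 rose 5.34-fold, 4.08-fold and 1.86-fold, whereas Dusp6 and Dusp7 fell (wild type over null 3.19-fold and 1.68-fold). Of the 10 genes, 5 passed the test, 3 higher and 2 lower, and 5 did not. The test was limma with Benjamini-Hochberg adjustment over all genes and a threshold of 0.05, which 11.5% of all genes passed, 5.35% higher and 6.12% lower. When the replicate number was added as a block, the same 3 were higher and 4 were lower, since Dusp4 and Dusp10 then passed as well (background 8.92% higher and 7.76% lower). At a stricter adjusted p under 0.01, 0 members were higher and 1 lower (Dusp6), against 1.22% and 2.44% of all genes. In 7 of the 10 genes all null arrays lay on 1 side of all wild type arrays, which 31% of all genes did. The sign was the same within all 3 replicate numbers for 8 members, 3 higher and 5 lower, against 51.6% of all genes. The median log2 difference (null minus wild type) was −0.56 over the 10 members and 0.02 over all genes, and the members ranged from −1.67 to 2.42.

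**Figure D1:**
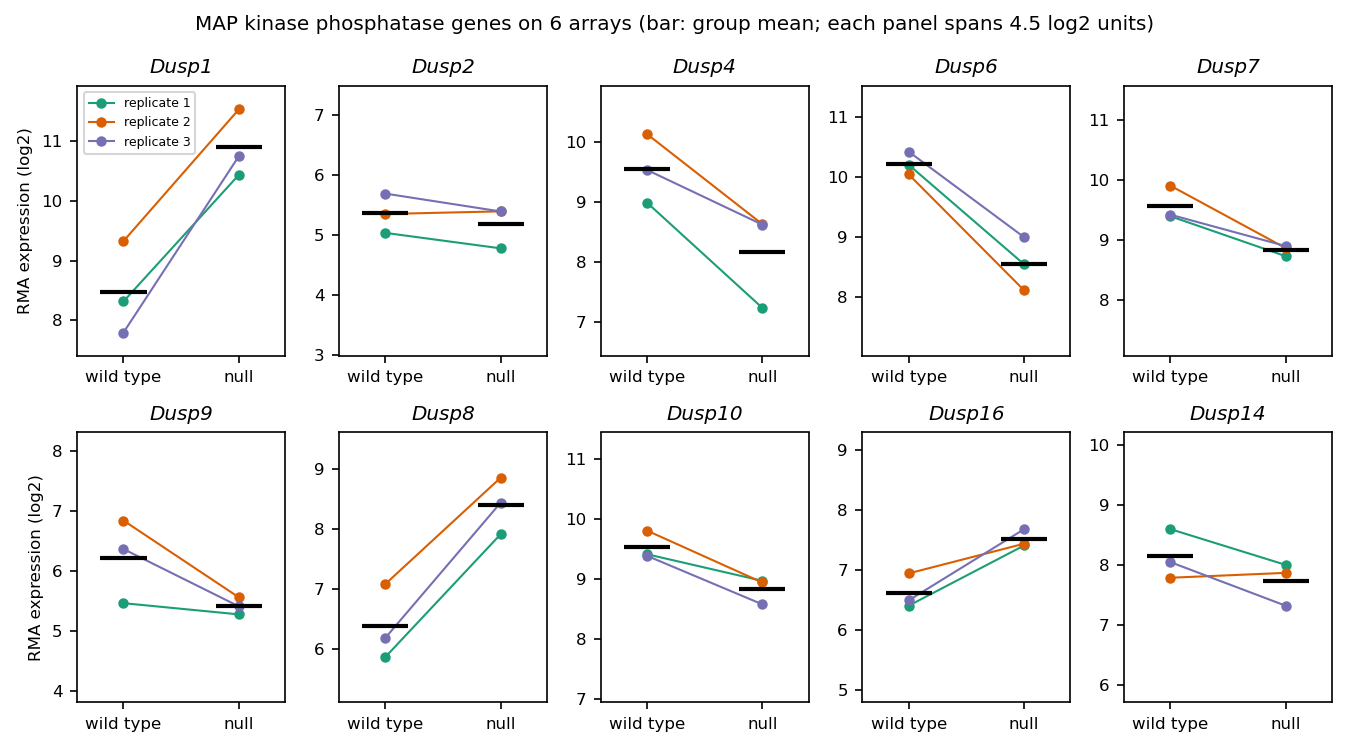
Expression of the 10 phosphatase genes on each array (vertical axes, RMA values on the log2 scale, each panel spanning the same number of units). Lines join arrays of the same replicate number and bars give group means of 3 arrays. Dusp1, Dusp8 and Dusp16 run upward from wild type to null in all 3 pairs, and Dusp4, Dusp6, Dusp7, Dusp9 and Dusp10 run downward in all 3.

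The DNA just upstream of the transcription start is shown for the 5 genes that passed the test, so that those that rose can be set beside those that fell. RefSeq's promoter table (build GRCm38.p6) held 8 of the 10 genes, and Dusp4 and Dusp9 were not among them. Each line gives the 250 bases before the start, 5′ to 3′ on the gene's strand. Capitals mark every match on either strand to TGACG, which includes the full cAMP response element TGACGTCA, and to the E-box CACGTG.
Dusp1 (chr17:26508473-26508722, minus strand): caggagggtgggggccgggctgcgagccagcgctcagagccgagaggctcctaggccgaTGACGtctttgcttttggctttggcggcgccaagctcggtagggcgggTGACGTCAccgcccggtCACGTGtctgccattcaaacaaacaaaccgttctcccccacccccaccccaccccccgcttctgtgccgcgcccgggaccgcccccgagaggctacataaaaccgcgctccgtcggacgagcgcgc
Dusp8 (chr7:142095285-142095534, minus strand): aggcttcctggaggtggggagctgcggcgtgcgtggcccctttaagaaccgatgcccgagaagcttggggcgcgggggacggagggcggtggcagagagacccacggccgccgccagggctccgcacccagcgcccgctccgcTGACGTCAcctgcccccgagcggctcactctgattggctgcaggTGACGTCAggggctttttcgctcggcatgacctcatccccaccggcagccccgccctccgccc
Dusp16 (chr6:134792629-134792878, minus strand): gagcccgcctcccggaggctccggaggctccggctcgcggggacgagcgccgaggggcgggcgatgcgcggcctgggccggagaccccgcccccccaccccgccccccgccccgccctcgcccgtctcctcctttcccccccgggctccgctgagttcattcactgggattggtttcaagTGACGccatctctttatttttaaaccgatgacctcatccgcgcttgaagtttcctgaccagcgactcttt
Dusp6 (chr10:99262981-99263230, plus strand): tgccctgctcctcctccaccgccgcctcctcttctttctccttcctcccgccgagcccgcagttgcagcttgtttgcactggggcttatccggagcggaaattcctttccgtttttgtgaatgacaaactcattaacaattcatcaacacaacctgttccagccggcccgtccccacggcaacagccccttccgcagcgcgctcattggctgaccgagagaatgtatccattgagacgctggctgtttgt
Dusp7 (chr9:106368382-106368631, plus strand): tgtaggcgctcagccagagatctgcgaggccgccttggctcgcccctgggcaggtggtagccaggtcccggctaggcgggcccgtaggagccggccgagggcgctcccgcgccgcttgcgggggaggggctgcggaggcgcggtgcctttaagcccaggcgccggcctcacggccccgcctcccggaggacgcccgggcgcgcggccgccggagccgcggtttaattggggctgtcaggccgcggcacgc
The full cAMP response element, a palindrome known to bind the CREB and ATF transcription factors, occurred in 2 of the 8 windows, those of Dusp1 and Dusp8. It began 143 bases upstream of the start in Dusp1, and 107 and 63 bases upstream in Dusp8. TGACGTCA was present in 1.55% of the 32851 promoters in the table. The shorter TGACG, which lies inside the full element, was found in 3 of the 8 windows (17.8% of all promoters), those of the 3 genes that rose. In Dusp16 it stood alone, 70 bases upstream. No match to it was found in the windows of Dusp2, Dusp6, Dusp7, Dusp10 or Dusp14. E-boxes were present in Dusp1 and Dusp2 (6.02% of all promoters). No window held the AP-1 site TGANTCA, the ETS site CCGGAAG, the TATA box TATAAA or the CArG box of serum response factor, found in 6.75%, 6.91%, 12.4% and 1.47% of all promoters. The GC box GGGCGG was in 6 of the 8 windows (32.7% of all promoters) and CCAAT in 5 of them (33.8%). The 8 windows held 56.4% to 77.2% G or C, against a median of 52.4% over all promoters. The shares of all promoters given here are not adjusted for this. Among the 276 tested genes with TGACGTCA in this window, 9.06% were called higher and 6.88% lower in null cultures, against 5.37% and 6.25% of the 11894 tested genes with a promoter in the table. Among the 2993 with TGACG on either strand, 6.31% were called higher and 8.55% lower. Counted per gene, both motifs were more frequent among these tested genes (276 and 2993 of 11894) than among all promoters. For Dusp7, Dusp8, Dusp14 and Dusp16 the RefSeq gene record reaches further upstream than the start used here, by 72, 623, 899 and 14435 bases. Other transcripts of these genes may therefore begin elsewhere. These matches are a description of the letters, and binding was not measured.

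Among the inducible nuclear enzymes, Dusp1 and Dusp4 differed in opposite directions. Dusp1 encodes MKP-1, an early-response phosphatase that acts on p38, JNK and ERK. Its log2 level was 8.32, 9.32 and 7.80 in wild type replicates 1, 2 and 3 and 10.43, 11.52 and 10.74 in null replicates 1, 2 and 3. The lowest null array stood 1.11 above the highest wild type array, and replicate 2 was the highest array of each group. The group means were 8.48 ± 0.78 and 10.90 ± 0.56 (SD, n = 3 each), a log2 difference of 2.42 (SE 0.45, limma adjusted p = 0.021). This was the 83rd largest increase of all genes. Within replicate numbers 1, 2 and 3 the differences were 2.11, 2.20 and 2.94. The call was lost without null replicate 2 (adjusted p = 0.070), null replicate 3 (0.062), wild type replicate 1 (0.055) or wild type replicate 3 (0.063), with log2 differences of 2.08 or more in each of the 6 fits that left out an array.

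Dusp4 encodes MKP-2, a nuclear relative of MKP-1. On the log2 scale its level was 9.0, 10.14 and 9.54 in wild type replicates 1, 2 and 3 and 7.24, 8.64 and 8.63 in null replicates 1, 2 and 3. All null arrays were below all wild type arrays, by 0.36 at the nearest, and replicate 1 was the lowest array of each group. This gave a log2 difference of −1.39 (SE 0.46, limma adjusted p = 0.11). With the replicate block the SE was 0.19 and the adjusted p = 0.011. With all 6 arrays the fall thus passed when they were compared within their number, and not without the block. Within numbers 1, 2 and 3 the differences were −1.76, −1.50 and −0.91. Without replicate 1 of both groups Dusp4 passed in the fit without a block too (log2 difference −1.21, adjusted p = 0.046). It passed in none of the 6 fits that left out 1 array (adjusted p 0.098 to 0.26), and without null replicate 1 the log2 difference was −0.93 (adjusted p = 0.17).

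Dusp2, which encodes the nuclear phosphatase PAC-1, known best from activated lymphocytes, did not pass. Its log2 levels were 5.03, 5.34 and 5.68 in wild type and 4.77, 5.39 and 5.39 in null replicates 1, 2 and 3, and the groups overlapped. Their log2 difference was −0.17 (95% interval −0.75 to 0.41, limma adjusted p = 0.73). Its mean level lay at the 39.9th percentile of all genes.

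All of the cytoplasmic ERK-selective enzymes had negative differences, and 2 of the 3 fell. Dusp6 encodes MKP-3, whose transcription is a common readout of ERK activity. Its log2 level was 10.20, 10.04 and 10.42 in wild type replicates 1, 2 and 3 and 8.54, 8.11 and 9.0 in null replicates 1, 2 and 3. The groups were 1.05 apart at their nearest arrays, and replicate 3 was the highest and replicate 2 the lowest in each. The log2 difference was −1.67 (SE 0.24, limma adjusted p = 0.0095), the lowest adjusted p of the family and the 218th largest decrease of all genes. Dusp6 passed in all 6 fits that left out an array, with log2 differences from −1.90 to −1.45 and adjusted p up to 0.041.

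Dusp7 encodes MKP-X, a cytoplasmic ERK phosphatase close in sequence to MKP-3. Levels (log2) were 9.40, 9.91 and 9.43 in wild type replicates 1, 2 and 3 and 8.73, 8.87 and 8.90 in null replicates 1, 2 and 3. The groups did not overlap (nearest arrays 0.50 apart), and the null arrays were close together (SD 0.09 against 0.29). The log2 difference was −0.74 (SE 0.17, limma adjusted p = 0.038). Leaving out any 1 array ended the call, at an adjusted p between 0.051 (wild type replicate 1 left out) and 0.11 (null replicate 2 left out). In between were 0.058 and 0.074 for wild type replicates 2 and 3, and 0.098 and 0.093 for null replicates 1 and 3.

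Dusp9 encodes MKP-4, the remaining cytoplasmic enzyme, known for its role in the placenta. Arrays read, on the log2 scale, 5.47, 6.85 and 6.37 in wild type replicates 1, 2 and 3 and 5.28, 5.57 and 5.42 in null replicates 1, 2 and 3. Wild type replicate 1 lay inside the null range, and the other wild type arrays lay above it. The log2 difference of −0.81 did not pass (SE 0.34, 95% interval −1.63 to 0.01, limma adjusted p = 0.20, and 0.073 with the replicate block). The within-number differences were −0.19, −1.28 and −0.96. Without wild type replicate 1 the log2 difference was −1.19 and passed (adjusted p = 0.024), and without replicate 1 of both groups it was −1.12 (adjusted p = 0.043). It did not pass in the other 5 fits that left out 1 array (adjusted p 0.31 to 0.38), and without wild type replicate 2 the log2 difference was −0.50 (adjusted p = 0.38).

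**Figure D2:**
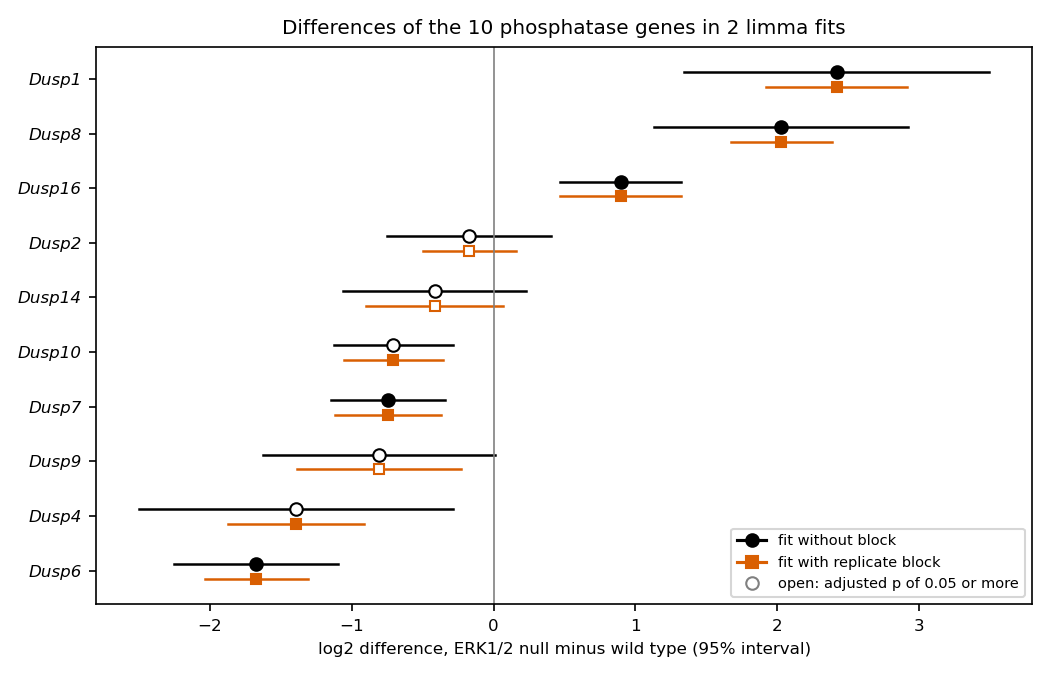
Log2 differences (horizontal axis, ERK1/2 null minus wild type) of the 10 genes with 95% intervals from limma without a block (circles) and with the replicate number as a block (squares). Filled symbols mark an adjusted p under 0.05. The intervals of Dusp1, Dusp4 and Dusp8 narrow most with the block, and that of Dusp16 stays nearly as wide (0.47 to 1.32 in each fit).

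Of the enzymes that prefer JNK and p38, Dusp8 and Dusp16 rose and Dusp10 had a negative difference. Dusp8 encodes a phosphatase that acts mainly on JNK and is known from brain and heart. Its RNA stood, on the log2 scale, at 5.87, 7.09 and 6.19 in wild type replicates 1, 2 and 3 and 7.92, 8.86 and 8.45 in null replicates 1, 2 and 3. The groups were 0.83 apart, and the arrays kept the same order by number in each group, with replicate 1 lowest and replicate 2 highest. Between groups the log2 difference was 2.03 (SE 0.37, limma adjusted p = 0.020), the 132nd largest increase of all genes. Within numbers 1, 2 and 3 the differences were 2.05, 1.77 and 2.26, and with the block the SE fell to 0.14 (adjusted p = 0.0023). The call was lost without null replicate 2 (adjusted p = 0.073), null replicate 3 (0.069) or wild type replicate 3 (0.077).

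Dusp16 encodes MKP-7, which shuttles between nucleus and cytoplasm and acts on JNK and p38. Its log2 level was 6.40, 6.94 and 6.49 in wild type replicates 1, 2 and 3 and 7.41, 7.44 and 7.68 in null replicates 1, 2 and 3. All null arrays were above all wild type arrays, by 0.47 at the nearest. The log2 difference was 0.90 (SE 0.18, limma adjusted p = 0.025), and it was smallest within number 2 (0.50, against 1.0 and 1.19 within numbers 1 and 3). The call was kept without wild type replicate 2 (adjusted p = 0.022) and lost without any other array. The adjusted p was then 0.062 and 0.086 (wild type replicates 1 and 3 left out) or 0.052, 0.078 and 0.082 (null replicates 1, 2 and 3 left out).

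Dusp10 encodes MKP-5, a phosphatase of JNK and p38. Its log2 level was 9.42, 9.81 and 9.39 in wild type replicates 1, 2 and 3 and 8.97, 8.95 and 8.58 in null replicates 1, 2 and 3. The null arrays lay below the wild type arrays without overlap, 0.42 apart at the nearest. The log2 difference of −0.71 (SE 0.17) had a limma adjusted p of 0.051, just over the threshold. It passed with the replicate block (0.028), after quantile normalization (0.042), after subtraction of array medians (0.038), without dim genes (0.041) and with array weights (0.045). It did not pass in any of the 6 fits that left out 1 array (adjusted p 0.079 to 0.13) or without replicate 1 of both groups (0.096).

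Dusp14, which encodes the small atypical phosphatase MKP-6, did not pass. Its log2 levels were 8.59, 7.78 and 8.04 in wild type and 7.99, 7.86 and 7.31 in null replicates 1, 2 and 3, and the groups overlapped. The log2 difference was −0.41 (95% interval −1.06 to 0.23, limma adjusted p = 0.40), with differences of −0.60, 0.08 and −0.73 within numbers 1, 2 and 3.

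The members differed in how far the replicate block narrowed their SE. In each fit limma draws the variance of a gene towards that of all genes. The ratios below therefore do not measure a share of spread. The SE without the block was 2.63 times the SE with it for Dusp8, 2.42 times for Dusp4 and 2.27 times for Dusp1, against 1.04 times for Dusp16 and 1.13 times for Dusp7. Replicate 2 was the highest array of each group for Dusp1, Dusp4, Dusp8 and Dusp9, and replicate 1 the lowest of each group for Dusp2, Dusp4, Dusp7, Dusp8, Dusp9 and Dusp16. No label says what arrays of 1 number share.

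**Figure D3:**
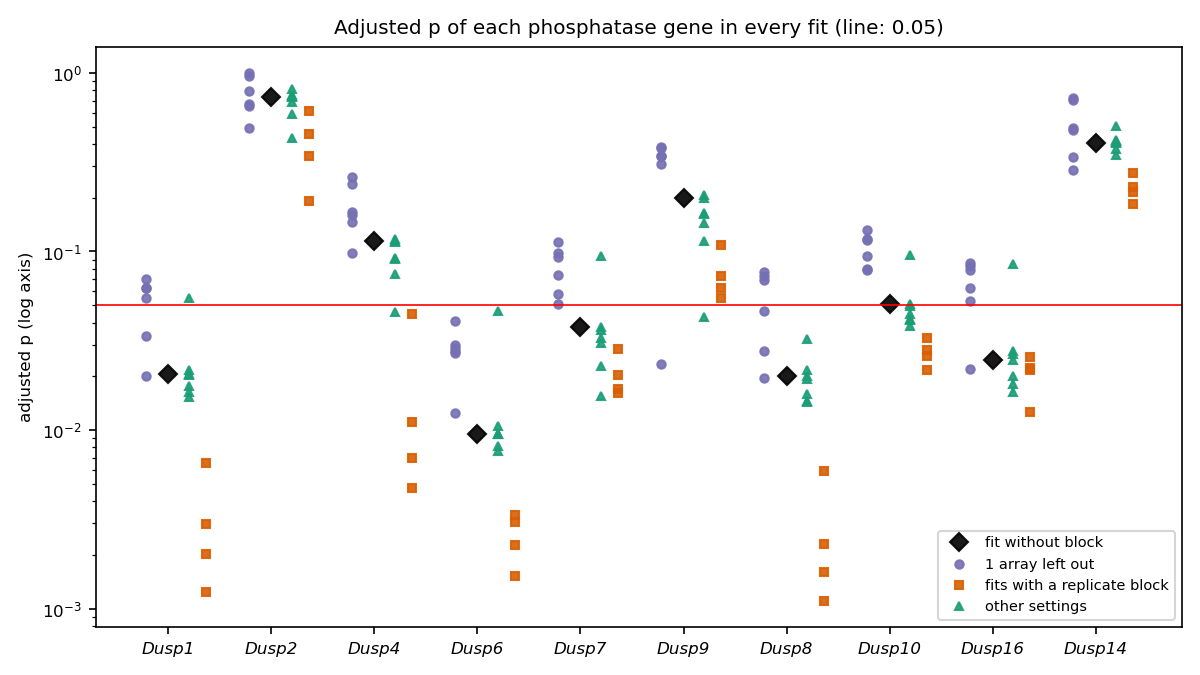
Adjusted p (vertical log axis) of each gene in the fit without a block (diamonds), with 1 array left out (circles), with a replicate block (squares) and in other settings (triangles), with a line at 0.05. All points of Dusp6 lie under the line, all points of Dusp2 and Dusp14 above it, and Dusp1, Dusp8 and Dusp16 cross it mainly when 1 array is left out.

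Genes with the most similar course over the 6 arrays were taken, for each called member, as the 5 with the highest Pearson correlation among the 4238 other genes that ranged over at least 1 log2 unit. Since the groups differ for all of these members, any gene with a like group difference scores high, and the values are descriptions over 6 arrays. For Dusp1 these were Mknk1, Ak3, Ssh3, Ahdc1 and Tfeb, with correlations of 0.997 to 0.994. For Dusp8 they were Aamdc, Cpne8, Atrnl1, Pld1 and Ezh1 (0.999 to 0.996), and for Dusp16 Anxa8, Car6, Usp53, Tgtp1 and Atf3 (0.997 to 0.991). Dusp6 was most like G2e3, Rnps1, Anp32e, Suz12 and Ccne2 (0.993 to 0.988), and Dusp7 most like Taf9, Jade3, Ccdc18, Nkrf and Sephs2 (0.995 to 0.988). A correlation of at least 0.95 was reached by 193 genes for Dusp1, 153 for Dusp8, 107 for Dusp16, 177 for Dusp6 and 90 for Dusp7.

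Phosphatases outside this family had 1 call in each of the lists measured, beside the 11.5% of all genes that were called. Of 15 other dual-specificity phosphatase genes, the cofilin phosphatase gene Ssh3 was the single one to rise, by 1.03 on the log2 scale (SE 0.17, adjusted p = 0.015 by limma, but 0.055 when null replicate 2 was left out), none fell, and the median was −0.04. With the replicate block Dusp3, which encodes the small phosphatase VHR, passed too (1.37, limma adjusted p = 0.064, blocked 0.017). Of 9 tyrosine and serine/threonine phosphatase genes whose products can act on MAP kinases, Ppp2r1b, a scaffold subunit of PP2A, fell by 0.54 (adjusted p = 0.041 by limma, 0.051 with the block, but 0.14 when null replicate 2 was left out), none rose, and the median was −0.03. The difference between these lists and the MAP kinase phosphatases was not tested.

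The kinases that these enzymes act on, and the kinases upstream, showed no call. Of 17 measured genes for other MAP kinases and MAP kinase kinases, 0 passed in limma without the block. An unadjusted p under 0.05 was reached by 5, all lower, beside 1802 lower and 2023 higher of all 14860 genes. The median log2 difference of the 17 was −0.15, and Map2k3, a p38-activating kinase, had the lowest p (log2 difference −0.66, unadjusted p = 0.0059, adjusted p = 0.051). With the block 3 were lower, Map2k3 (0.019), Mapk6 (0.049) and Mapk13 (0.012), the last an isoform of p38, and these last 2 were named after their values were seen.

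Genes that ERK is known to induce had calls in 1 direction. Of 17, 6 fell and 0 rose in limma (10 lower and 2 higher at an unadjusted p under 0.05), with a median of −0.86. Over all genes 6.12% were called lower and 5.35% higher, and with the block 7.76% and 8.92%. These shares also stand beside the counts of the lists that follow. An unadjusted p under 0.05 was reached by 1802 lower and 2023 higher of all 14860 genes. The 6 that fell were the AP-1 subunit Fosl1 (−1.57), cyclin D1 (Ccnd1, −1.28), the early-response factor Egr1 (−1.13), the Raf inhibitor Spred1 (−1.09), Myc (−1.09) and the ETS factor Etv5 (−1.08). Of these, Egr1, Myc and Etv5 each kept the call in 1 of 6 fits without an array (adjusted p up to 0.14 without null replicate 3 for Egr1, 0.086 without null replicate 3 for Myc and 0.15 without null replicate 2 for Etv5). The fall of Dusp6 (−1.67) stood beside −1.57 for Fosl1. With the block 7 fell, now with Epha2 (−0.86, blocked adjusted p = 0.049), and 1 rose, the feedback inhibitor Spry1 (0.71, blocked adjusted p = 0.035).

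Of 11 early genes known to respond to stress-activated kinases, 3 rose and 1 fell, with a median of 0.85. Those that rose were the transcription factor Atf3 (2.18, limma adjusted p = 0.0089) and the growth-arrest genes Gadd45g (2.07, 0.034) and Gadd45b (2.07, 0.049), and Ier2 fell by 0.84. Without single arrays Gadd45g reached 0.12 (null replicate 2), Gadd45b 0.13 (wild type replicate 2) and Ier2 0.051 (null replicate 3), whereas Atf3 stayed at 0.042 or lower. The rise of Dusp1 (2.42) stood beside 2.18, 2.07 and 2.07 for these 3 genes. With the block 5 rose and 2 fell, where Gadd45a (1.31, blocked adjusted p = 0.020), Ddit3 (1.69, 0.011) and Ptgs2 (−1.77, 0.033) passed too.

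Dusp1 is also a textbook target of the glucocorticoid receptor, so 8 measured genes of that response were set beside it. Tsc22d3 (1.36) and Per1 (0.91) rose, and Sgk1 (−1.90) and Fkbp5 (−1.59) fell, with a median of 0.29. The adjusted p of Sgk1 was 0.034 (0.11 without wild type replicate 3) and that of Fkbp5 0.021 (0.057 without null replicate 3). The list had calls in both directions, 2 each, and 3 each with the block, where Nfkbia (0.62, blocked adjusted p = 0.024) and Errfi1 (−1.13, blocked 0.018) passed too. A part of this receptor in the rise of Dusp1 was not tested.

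**Figure D4:**
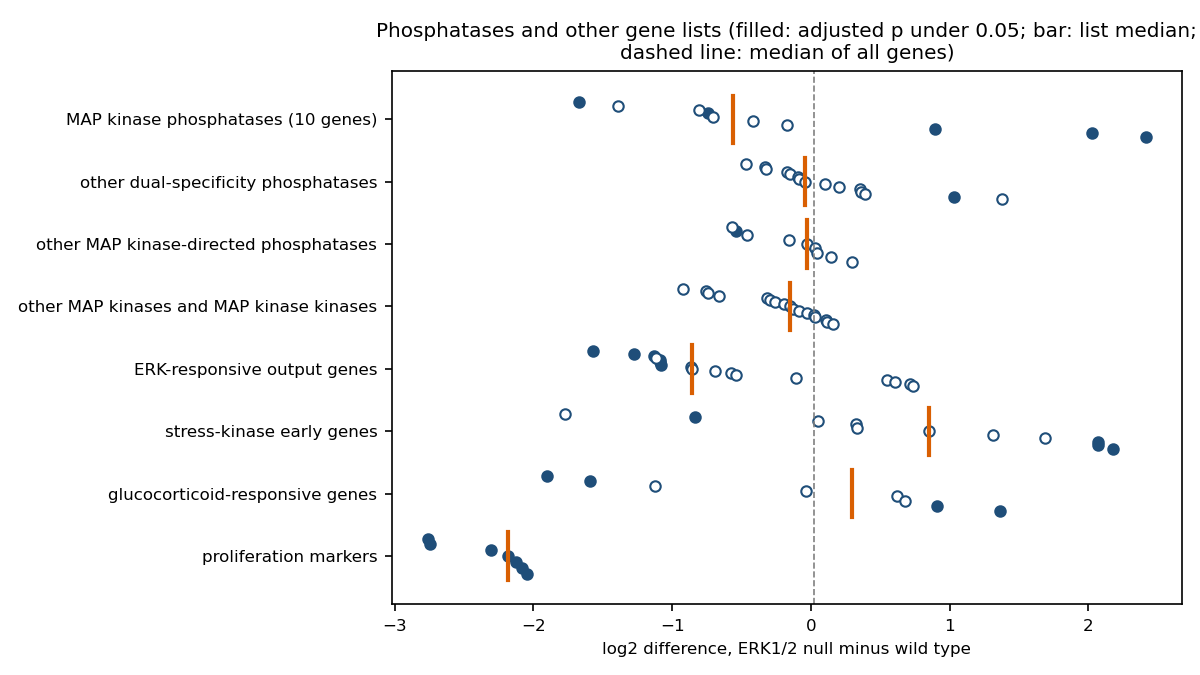
Log2 differences (horizontal axis, ERK1/2 null minus wild type) of the MAP kinase phosphatases and of 7 other gene lists, 1 point per gene. Filled points passed an adjusted p of 0.05, bars give list medians and the dashed line the median of all genes. The phosphatases spread to both sides, from −1.67 to 2.42, while all 7 proliferation markers lie below −2.

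Other properties of the cultures moved with the same groups. All 7 measured proliferation markers fell, with a median of −2.19, for example Mki67 (−2.76, limma adjusted p = 0.0014), and the log2 of their summed level was 10.29 to 10.49 in null and 12.55 to 12.84 in wild type arrays. Of 7 fibroblast markers 3 rose, Col3a1, Col1a2 and Mfap5 (median 2.17, summed level 13.59 to 14.78 in null and 12.76 to 13.35 in wild type). Without single arrays Col1a2 reached a limma adjusted p of 0.11 (null replicate 3) and Mfap5 0.15 (null replicate 2), whereas Col3a1 stayed at 0.031 or lower. Of 6 smooth muscle markers 1 rose, Mylk (median 0.63, summed level 12.29 to 13.19 and 11.33 to 12.34). Its limma adjusted p reached 0.060 without null replicate 3. With the block 6 fibroblast and 3 smooth muscle markers rose. Of 12 endothelial markers 0 passed in limma without the block and 1 with it (Erg, blocked adjusted p = 0.034, named after its values were seen), which was also the 1 marker with an unadjusted p under 0.05. Levels of 10 of these 12 lay in the lowest 33.3% of all genes, Pecam1, Cdh5, Tek and Kdr among them, while Eng was at the 91.8th percentile. The summed level of the 12 was 9.68 to 10.25 in null and 9.35 to 9.95 in wild type arrays, below the sums of the fibroblast and smooth muscle lists. These ranks and sums compare different probes without a detection value and do not show that a marker is absent. Of 5 leukocyte markers 0 passed in limma without the block, 0 had an unadjusted p under 0.05, and 1 passed with the block, Cd14. The part of these shifts in the phosphatase differences was not tested, and in bulk cultures fewer cells of a type and less RNA per cell cannot be told apart.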

How the data were processed

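RNA was measured on 6 arrays, 1 per culture, and groups were taken from the sample titles. The deposited values are on a log2 scale (0.74 to 14.32, 0 missing), and the authors used RMA (version not given), per the submitters' processing notes. RMA subtracts background, puts arrays on a common scale and combines the probes of a gene, and it compresses dim genes. No depth applies to arrays, and their number limits precision. No value for detection above background was used here.

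Of 16775 rows, 14996 named 1 gene in the platform annotation, 1019 named several and 760 none here. Symbols of 14941 rows were updated through the RefSeq gene table. The row with the highest mean stood for each of 14860 genes. Null and wild type were compared with limma 3.58.1 in R 4.3.3 (lmFit, eBayes, 2-sided, Benjamini-Hochberg over all genes). Deviations from group means correlated between arrays of 1 number (r = 0.57, 0.35 and 0.45 across genes, other pairs at most 0.04). Such deviations cancel out within a group, so the values of the other pairs are not independent of these. Numbers were taken to pair arrays by the data alone. Results of the blocked fit are printed where it changed a call, in the fibroblast and smooth muscle lists as counts only. Titles call the arrays biological replicates. Tables and figures used Python 3.11.15, pandas 2.3.3 and matplotlib 3.10.9. On simulated data for this comparison, with 200 of 14860 genes changed, 70% of differences of 1 log2 unit and 95% of 2 were recovered, with 6 false calls. The simulated noise had the residual SD of the blocked fit and no effect of replicate number, and was fitted without a block. These figures therefore describe an easier setting than the fit of the real arrays without a block.

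Members and lists were chosen with earlier results of these data known. Genes named were all 10 members, the 5 most similar genes of each called member, and of each other list up to 4 called genes by size or the one with the lowest p. Of the proliferation markers only Mki67, with the largest fall, was named. Pecam1, Cdh5, Tek, Kdr and Eng were named outside this rule, to describe levels. Myc, Etv5 and genes passing only with the block were named after their values were seen. Motifs were searched in RefSeq's promoter table by letters alone.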

Additional observations from a re-analysis of the deposited data

How the results depend on the processing

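Over the 10 phosphatase genes and 17 alternatives each, 132 of 170 values kept both their sign and their side of the threshold. Another 37 kept the sign and changed side, and 1 turned sign and kept its side. These counts include Dusp2 and Dusp14, which passed in no fit. The value that turned sign was that of Dusp2, whose log2 difference ran from −0.33 (without wild type replicate 1) to 0.035 (without null replicate 1). Leaving out 1 array gave 0 to 3 members higher and 1 to 2 lower, and over all genes 271 to 651 higher and 459 to 727 lower (main 795 and 910); without null replicate 2 the counts of members were 0 and 1. Such fits have fewer degrees of freedom. At an adjusted p under 0.01, 0 members were higher and 1 lower, against 1.22% and 2.44% of all genes.

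With the replicate block 1326 genes were higher and 1153 lower, and 4 members were lower. Fits chosen after seeing the data gave 1305 genes higher with the block as a random effect, 1288 with the block after quantile normalization and 1216 higher and 1402 lower with the block after subtraction of array medians, each with 4 members lower. The cause was not tested. Without replicate 1 of both groups, also chosen after seeing the data, 556 genes were lower, and 1 member was higher (Dusp8) and 3 lower. The replicate block changed no call of a member other than Dusp4 and Dusp10. Of 27 called genes in the other lists, 14 were called in all 6 fits that left out an array.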
